A study of Mus musculus with 2 samples.

Results

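The genes Mir126a, Mir126b, Mir143 and Mir145a encode microRNAs (miRNAs) of blood vessels, and their reads were followed in mouse cerebral cortex. They were selected by gene name in the GENCODE M21 annotation, with no count threshold in the rule, but after earlier results of these data were known. They are 4 of the 2202 annotated miRNA genes with a count. Short RNA (size range under 30 nucleotides) from left cerebral cortex of B6CASTF1/J males, 2 months old, was sequenced. B6CASTF1/J animals are the offspring of a cross between the inbred strains C57BL/6J and CAST/EiJ. There was 1 group of 2 libraries, labelled male 3 (library 1) and male 4 (library 2), and no treatment, genotype or other condition was compared. The labels number the animals and replicates separately but give both the same donor identifier, so the spread between the libraries may be partly technical. Library 1 had 3827158 reads on the sense strand of miRNA genes and library 2 had 4553291, and levels are given as counts per 1000000 of these reads (CPM). The reads carry no molecular identifiers and are not independent molecules, and every interval below covers counting error only.

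A miRNA is cut from a hairpin in a longer transcript, and its mature strand guides a silencing complex to messenger RNAs that pair with its seed, bases 2 to 8. The miRNA miR-126 is a well-known marker of endothelial cells, which line vessels and, in the brain, form the blood-brain barrier. Its hairpin lies in Egfl7, a gene for a protein secreted by endothelium, and in mice and zebrafish it supports the response of endothelial cells to vascular endothelial growth factor. The miRNAs miR-143 and miR-145 are made from neighbouring hairpins and are known for holding vascular smooth muscle in its contractile state. In brain they mark mural cells, the smooth muscle cells and pericytes that wrap arterioles and capillaries. Fewer vascular cells and less miRNA per vascular cell cannot be told apart in RNA from whole tissue.

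The Mir126a and Mir126b hairpins are shown first because the result at that locus turns on their overlap. They lie on opposite strands of the same stretch of chromosome 2 (mm10, GRCm38), Mir126a on the plus strand at chr2:26591357-26591429 and Mir126b on the minus strand at chr2:26591363-26591420. These 2 of the 4 genes matched the RefSeq miRNA table (build GRCm38.p6), and Mir143 and Mir145a are named only. In the hairpins, capitals mark the mature miRNAs of that table. It held no entry for miR-126a-5p, so that mature miRNA is neither marked nor listed. Counts are per hairpin and do not separate the mature miRNAs of a hairpin. In the mature miRNAs, capitals mark the seed.
Mir126a hairpin: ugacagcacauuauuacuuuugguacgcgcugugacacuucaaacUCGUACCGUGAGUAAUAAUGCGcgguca
Mir126b hairpin: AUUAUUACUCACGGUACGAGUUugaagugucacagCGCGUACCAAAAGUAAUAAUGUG
miR-126a-3p: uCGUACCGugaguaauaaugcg
miR-126b-5p: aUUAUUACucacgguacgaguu
miR-126b-3p: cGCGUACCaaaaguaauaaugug
The 58 bases of the Mir126b hairpin are the exact reverse complement of positions 7 to 64 of the 73 bases of the Mir126a hairpin, counted from its 5′ end. miR-126a-3p covers positions 46 to 67 of the Mir126a hairpin, and miR-126b-5p lies opposite positions 43 to 64, so these mature miRNAs are complementary over 19 bases. The 3 seeds shown differ from each other, and none of them occurs in another of the 1679 mature miRNA names in the RefSeq table. A read within the shared 58 bases therefore belongs to Mir126a or to Mir126b by its strand alone.

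The reads at this locus came from the Mir126a strand. Mir126a (ENSMUSG00000065540.1) had 30999 reads in library 1 and 53842 reads in library 2. Mir126b (ENSMUSG00000105799.1) had 0 reads in both libraries, which allows up to 0.784 CPM in library 1 and 0.659 CPM in library 2. Mir126a was thus at least 10333-fold higher than Mir126b in library 1 and at least 17947-fold higher in library 2, with 3 counts per library set as the limit for Mir126b. The antisense column of Mir126b held 30996 entries in library 1 and 53839 in library 2. These are the reads of Mir126a, less 3 in each library. The antisense column of Mir126a held 0 reads in both libraries.

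Most overlapping miRNA genes behaved in the same way. The annotation holds 32 pairs of miRNA genes that overlap on opposite strands, and in 26 of them the higher gene had 10 or more reads in both libraries. The lower gene had no read in either library in 20 of these 26 pairs, the Mir126 pair included. In the other 6 it had at least 1 read, and in 1 of these it had 10 or more in both libraries. The Mir126 pair had the 2nd highest read total of the 26, behind Mirlet7e and its partner Gm25927.

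**Figure D1:**
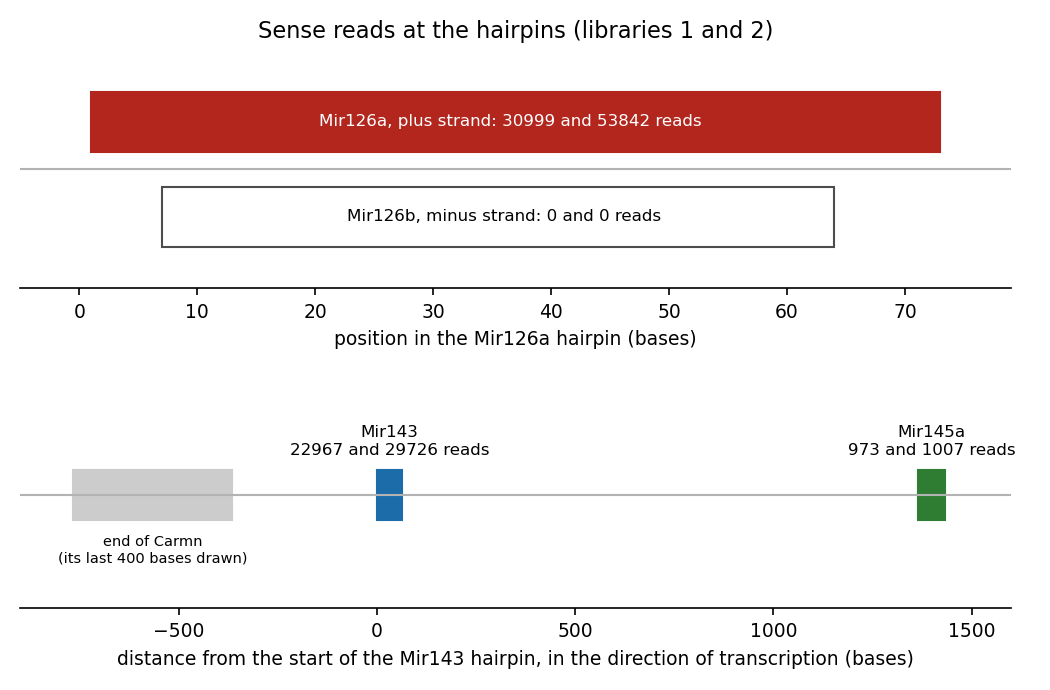
Maps of both loci, drawn to scale, with the sense reads of libraries 1 and 2 printed at each hairpin. The upper panel gives positions in bases within the Mir126a hairpin, where Mir126b lies inside Mir126a on the other strand with 0 reads in both libraries. The lower panel gives distance in bases from the start of the Mir143 hairpin in the direction of transcription. The gap between the Mir143 and Mir145a hairpins is 1301 bases, and Carmn, of which only the end is drawn, ends 366 bases before Mir143.

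The column that ignores strand loses nearly all of Mir126a, since a read that touches both genes is tallied there as ambiguous. It kept 3 of the 30999 Mir126a reads of library 1, or 0.00968% (exact 95% interval 0.00200 to 0.0283%). In library 2 it kept 3 of 53842, or 0.00557% (0.00115 to 0.0163%). The reads at this locus made up 11.2% of the ambiguous tally of that column in library 1 and 16.1% in library 2. Mir143 and Mir145a overlap no other miRNA gene and had the same counts in that column as on the sense strand, with 0 antisense reads. For an antisense share, 0 reads allow up to 0.0131% and 0.0101% at Mir143 and up to 0.308% and 0.298% at Mir145a in libraries 1 and 2.

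Mir126a was the highest of the vascular genes. It stood at 8100 CPM in library 1 and 11825 CPM in library 2, a mean of 9962 ± 2634 CPM (SD, n = 2), and it ranked 21st of all miRNA genes by the mean. Its reads made up 0.810% of the sense-strand miRNA reads of library 1 and 1.18% of those of library 2. The gene directly above it by the mean was the neuronal Mir128-1 (10137 ± 5296 CPM), and the gene directly below was Mir382 (9287 ± 671 CPM). Neither neighbour differed from Mir126a by more than the spread between the libraries. Mir126a lies in an intron of 8 of the 9 Egfl7 transcripts that span it (Egfl7, plus strand, chr2:26580014-26593120). It falls in an exon of the ninth, which is annotated as a retained intron. In 4 of these transcripts, of 10 exons each, the hairpin is in intron 7, which is 600 bases long (chr2:26591064-26591663). An intron of the gene Gm20532 on the same strand also spans it.

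Mir143 followed at a similar order of magnitude. It had 22967 reads in library 1 and 29726 reads in library 2, which are 6001 CPM and 6528 CPM. Its mean was 6265 ± 373 CPM (SD, n = 2), rank 34 of all miRNA genes. The gene directly above it was Mir411 (6275 ± 937 CPM), which differed by less than the spread, and the gene directly below was the neuronal Mir137 (5347 ± 241 CPM), whose values in both libraries lay under those of Mir143. Mir143 (ENSMUSG00000065445.3) is annotated on the minus strand at chr18:61649196-61649258.

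Mir145a was far lower than its neighbour. It had 973 reads in library 1 and 1007 reads in library 2, which are 254 CPM (exact 95% interval 239 to 271) and 221 CPM (208 to 235). Its mean was 238 ± 23.4 CPM (SD, n = 2), rank 159 of all miRNA genes, between Mir34c (243 ± 13.1 CPM) and Mir351 (234 ± 42.1 CPM), and it differed from both by less than the spread. Mir145a (ENSMUSG00000065592.2) is annotated on the same strand at chr18:61647825-61647894, and 1301 bases separate the hairpins. No further miRNA gene is annotated within 10 kb of either locus. The long non-coding gene Carmn, known from human cells as a transcript of cardiac and smooth muscle, ends 366 bases before Mir143 on the same strand in this annotation. Added together, the 4 genes took up 1.44% of all sense-strand miRNA reads in library 1 and 1.86% in library 2.

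**Figure D2:**
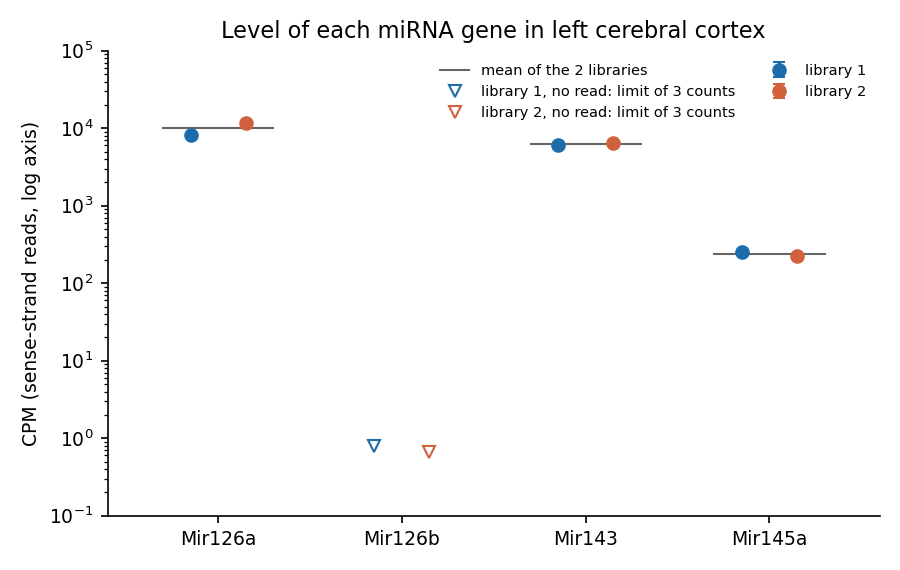
Level of each gene in CPM on a log axis, library 1 at the left and library 2 at the right of each pair, with exact 95% intervals that are mostly narrower than the points and a line at the mean. Mir126a lies at 8100 and 11825 CPM, Mir143 at 6001 and 6528 CPM, Mir145a at 254 and 221 CPM, and the open triangles for Mir126b mark the limits that a count of 0 allows.

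The order Mir126a, Mir143, Mir145a was the same in both libraries, and the ratios between the genes differed by more than counting error. Each count is per hairpin. Ratios are given first in reads and then, as an alternative scaling, per base of the hairpins of 73, 63 and 70 bases. The RNA was under 30 nucleotides, shorter than each of these hairpins, so a count need not rise with hairpin length. In reads, Mir126a was 1.35-fold above Mir143 in library 1 (exact 95% interval 1.33 to 1.37) and 1.81-fold in library 2 (1.79 to 1.84). Per base these ratios were 1.16-fold and 1.56-fold. The values of Mir126a in the 2 libraries did not overlap with those of Mir143. The ratio in reads of Mir126a to Mir143 was 1.34-fold larger in library 2 (exact 95% interval of the odds ratio 1.31 to 1.37). That interval holds counting error only, and the change of 0.42 on the log2 scale was not tested against the spread between samples. How far the capture of each mature miRNA in the library preparation sets its level against another was not tested.

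Mir143 exceeded Mir145a by 23.6-fold in reads in library 1 (exact 95% interval 22.1 to 25.2) and by 29.5-fold in library 2 (27.7 to 31.5). Per base of the hairpin the ratios were 26.2-fold and 32.8-fold. The ratio in reads was 1.25-fold larger in library 2 (1.14 to 1.37). Reads that map to several places enter no gene, and 1084 of the 2202 annotated hairpins share a stretch of 20 bases with another. Neither Mir143 nor Mir145a does so, and Mir126a and Mir126b do so only with each other on opposite strands. That comparison covers annotated hairpins only, so it cannot show whether reads were lost to matches elsewhere in the genome. The annotated gene Mir145b, which carries the same family name, had 0 reads in both libraries.

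Pairs of neighbouring miRNA genes commonly differed in count. Over 89 pairs of adjacent detected genes on the same strand, at most 10 kb apart, the median fold between the genes in reads was 9.03, with quartiles of 2.85 and 26.4. Mir143 and Mir145a, at 26.4-fold over both libraries, had the 23rd largest fold of the 89. Their change between the libraries, 0.32 on the log2 scale, was smaller than the median change of 0.55 over the pairs, and 66 pairs changed more. Some pairs hold genes with far fewer reads than Mir145a, so their changes carry more counting error. Of the 89 pairs, 42 lie on chromosome 12, so the pairs are not independent of each other. In 34 of them a gene shares 20 bases with another hairpin, which Mir143 and Mir145a do not. Over the other 55 pairs, an alternative chosen after seeing the data, the median fold was 8.62 and the median change 0.57. Mir143 and Mir145a had the 11th largest fold of these, and 42 pairs changed more.

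**Figure D3:**
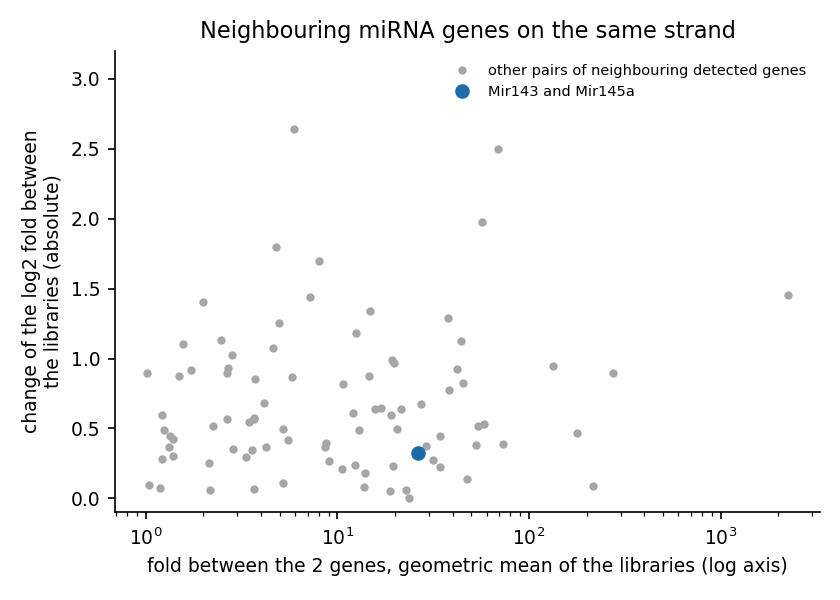
Each point is a pair of neighbouring detected miRNA genes on the same strand, with the fold between the genes in reads on a log axis and the absolute change of its log2 value between the libraries. The Mir143 and Mir145a pair lies at 26.4-fold and 0.32, within the spread of the other pairs on both axes.

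Between the libraries, Mir126a was lower in library 1 and the mural genes differed by at most 1.15-fold. The log2 ratio of library 1 over library 2 was -0.55 for Mir126a (exact 95% interval -0.57 to -0.53), which is 1.46-fold higher in library 2. It was -0.12 for Mir143 (-0.15 to -0.10), or 1.09-fold higher in library 2, and 0.20 for Mir145a (0.07 to 0.33), or 1.15-fold higher in library 1. All 3 genes passed the two-sided exact binomial test, with adjusted p = 4.24e-21 for Mir143 and 0.00471 for Mir145a by Benjamini-Hochberg over 508 genes. The value for Mir126a was too small for the number format. Mir126b, with 0 reads, was not tested.

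That test allows for counting error alone and is read against its background. It called 246 of the 508 genes tested (48.4%), of which 128 (25.2%) were higher in library 1 and 118 (23.2%) in library 2. Among genes with 1000 or more reads in total, as all 3 vascular genes have, it called 165 of 192 (85.9%). A share of 3 of 3 is therefore near what genes of this depth show. When edgeR's exact test was run at the common dispersion, a coefficient of variation of 33.3% between the libraries, 4 of 508 genes were called (0.787%) and none of the vascular genes. Their unadjusted p-values by edgeR's exact test were 0.443 for Mir126a, 0.879 for Mir143 and 0.755 for Mir145a, and each adjusted p was 1. The dispersion came from the same libraries, so these values only describe how far a gene stands from the rest.

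By size, the difference of Mir126a was above the median of the detected genes, and those of Mir143 and Mir145a were below it. Over 406 detected genes the median difference was 1.28-fold, and 295 lay within 1.5-fold, as did all 3 vascular genes. Ordered by absolute log2 ratio from the largest, Mir126a was 124th of 406, Mir145a 288th and Mir143 331st. Many of the 406 have far fewer reads than Mir126a, so their ratios carry more counting error.

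**Figure D4:**
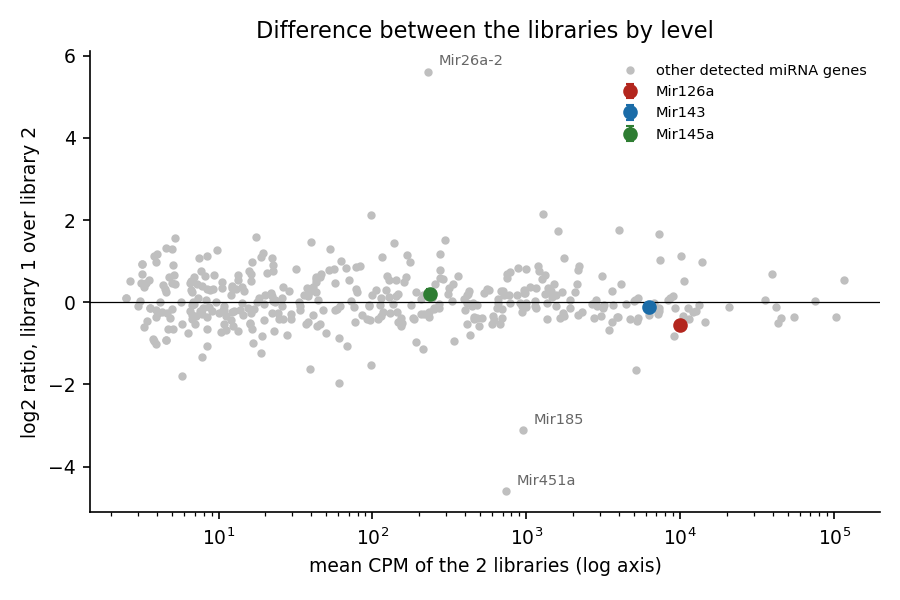
Log2 ratio of library 1 over library 2 against mean CPM on a log axis for the 406 detected genes, with the vascular genes in colour. Mir126a at -0.55, Mir143 at -0.12 and Mir145a at 0.20 lie within the band of the other genes, while Mir26a-2, Mir185 and Mir451a stand apart.

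Other miRNAs linked to endothelium did not share 1 direction. The list held 10 names, of which 9 matched the annotation and Mir92a-1 was not analysed here. All but Mir126b were detected. Of the 7 that remain without Mir126a and Mir126b, 3 were called higher in library 1 and 3 in library 2. Mir23a had 6587 CPM in library 1 and 11615 CPM in library 2, a log2 ratio of -0.82. Mir221, known in human endothelium for silencing the receptor KIT, had 6424 CPM in library 1 and 7906 CPM in library 2, a log2 ratio of -0.30. Mir23a and Mir221 were thus higher in library 2, like Mir126a. Their cluster neighbours ran the other way, with log2 ratios of 0.57 for Mir222, 1.16 for Mir27a and 0.80 for Mir24-2. The hairpins of Mir23a, Mir27a and Mir24-2 share 20 bases with another, so reads that map to more than 1 copy are missing from their counts, whereas Mir221 and Mir222 share none. The low Mir10b, at 13.8 and 24.6 CPM, was also called higher in library 2, whereas Mir10a, at 11.2 and 13.2 CPM, was not called. These calls are by the exact binomial test, which called 48.4% of all genes tested and 85.9% of those with 1000 or more reads in total. None of the list was called by edgeR's exact test. Several of these miRNAs are also made outside vessels, so the list is not specific to endothelium.

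Of the miRNAs linked to mesenchyme and fibroblasts, only Mir214 was detected, and it was not called by the exact binomial test. Mir214 stood at 33.4 CPM in both libraries, with 128 and 152 reads. Mir199a-1 had 0 reads in both libraries, Mir199a-2 had 1 and 0, and Mir199b had 0 and 2. The Mir199 genes share their mature sequence among copies, so reads placed at more than 1 gene would be missing from these counts, and their level cannot be read from them.

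Red blood cell genes were higher in library 2 as a sum, as was Mir126a. The red blood cell genes Mir451a, Mir144 and Mir486 summed to 134 CPM in library 1 and 1549 CPM in library 2, against 8100 and 11825 CPM for Mir126a. Of the 3, Mir451a (58.3 and 1419 CPM) and Mir144 (24.6 and 96.0 CPM) were higher in library 2 and Mir486 (51.0 and 34.7 CPM) was higher in library 1 by the exact binomial test. The sums of neuronal, astrocyte and oligodendrocyte genes were higher in library 1, the opposite of Mir126a. The 7 neuronal genes summed to 78339 CPM in library 1 and 53127 CPM in library 2. Of them, 5 were called higher in library 1 and 2 in library 2. Mir132 alone (48515 and 30152 CPM) made up most of that sum, and the median log2 ratio of the 7 was 0.17. The 2 higher in library 2, like Mir126a, were Mir138-1 (log2 ratio -0.45) and Mir138-2 (-0.40). The 4 genes of the astrocyte list, all of the miR-29 family, summed to 14342 and 9860 CPM, mostly from Mir29a (12547 and 8703 CPM). Of the 4, 3 were called, each higher in library 1. The 2 oligodendrocyte genes summed to 4975 and 3461 CPM and both were higher in library 1. Every gene of these 4 short lists was detected. Leukocyte and microglial genes summed to 2167 CPM in library 1 and 1753 CPM in library 2, with 4 of 6 detected. Most of that sum came from Mir150 (1291 and 1020 CPM) and Mir146 (776 and 640 CPM). Of the 6, 3 were called, Mir150, Mir146 and Mir223, each higher in library 1. Mir142 (45.2 and 43.5 CPM), Mir155 (36.6 and 45.7 CPM) and Mir146b (2.35 and 1.54 CPM) were not called. Mir223, a miRNA of granulocytes, had 15.9 CPM in library 1 (61 reads) and 1.76 CPM in library 2 (8 reads). It had too few reads in library 2 to count as detected, and its direction was opposite to that of Mir451a. The choroid plexus genes were alike, at 689 and 698 CPM with 0 of 4 called by the exact binomial test. These calls by the exact binomial test stand against the 48.4% of all genes, and the 85.9% of genes with 1000 or more reads, that it called. With edgeR's exact test only Mir451a (adjusted p = 2.66e-06) and Mir223 (adjusted p = 0.0457) of these 6 lists were called, and none of the neuronal, astrocyte or oligodendrocyte genes. The hairpins of Mir486, Mir128-1, Mir128-2, Mir138-1, Mir138-2, Mir29b-1, Mir29b-2, Mir29c, Mir219a-2, Mir146 and Mir146b share 20 bases with another hairpin. Reads that map to more than 1 place are missing from their counts and from the sums that hold them. How specific each list is to its cell type was not tested, nor was the part of blood or of other cell types in the Mir126a difference.

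**Figure D5:**
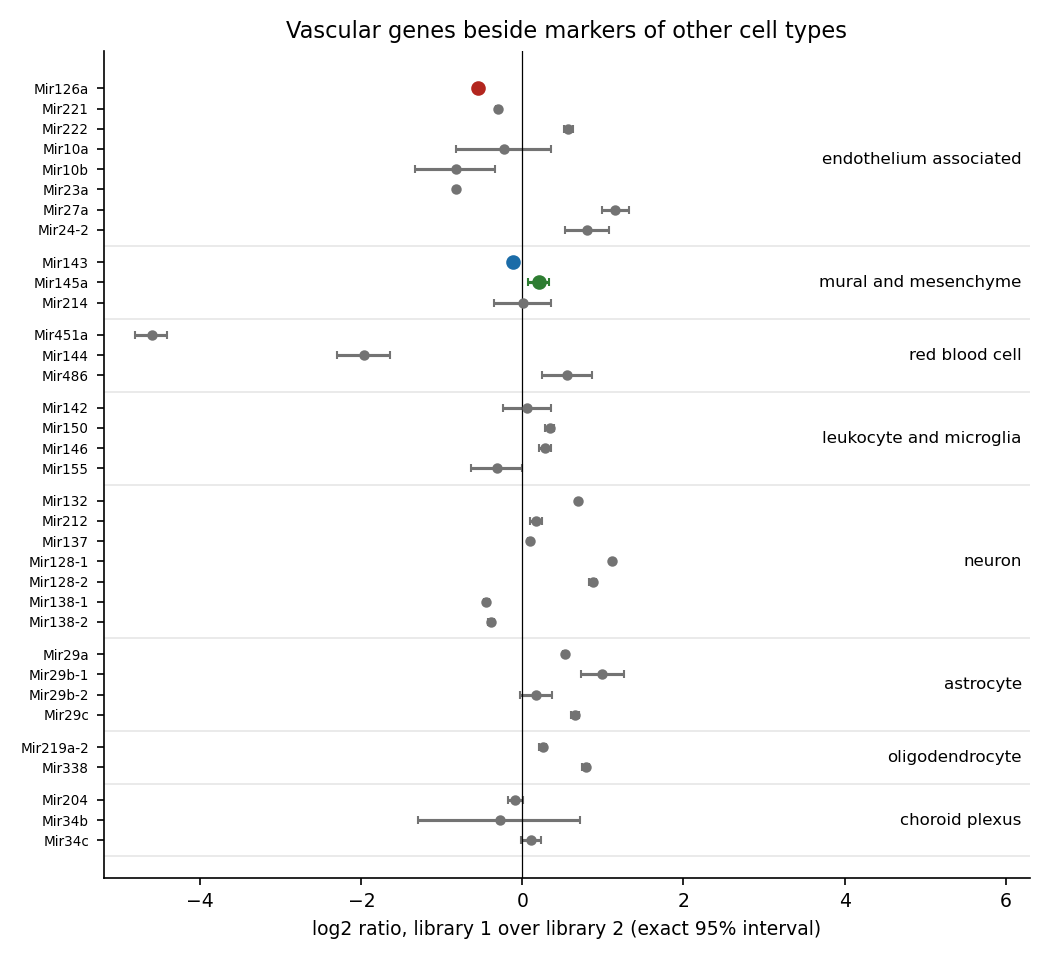
Log2 ratio of library 1 over library 2 with its exact 95% interval for the detected genes of 8 lists, grouped from top to bottom, with the vascular genes in colour. Mir126a lies at -0.55 among endothelium-associated genes on both sides of 0, Mir143 and Mir145a lie close to 0, and Mir451a and Mir144 lie far to the left.

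The genes nearest to each vascular gene in level were found by the distance between their log2 CPM values over both libraries. For Mir126a these were Mir99a (distance 0.18), Mir23a (0.30) and Mir382 (0.30). For Mir143 they were Mir411 (0.13), Mir383 (0.16) and Mir221 (0.29), and for Mir145a they were Mir421 (0.06), Mir34c (0.08) and Mir702 (0.20). With 2 libraries this measures likeness of level far more than likeness of pattern.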

How the data were processed

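The authors deposited 1 table per library of raw read counts per miRNA gene, on mm10 with GENCODE M21 per the deposited descriptions. For the aligner and the adapter trimming, nothing is given in the sources used here. The 3 count columns and 4 tally rows follow the layout of STAR gene counts, in which reads that map to several places (41.7% and 41.1% of libraries 1 and 2) enter no gene. Of all reads, 33.7% and 35.1% were counted on the sense strand. Reads of the CAST/EiJ allele that differ from mm10 may have been lost.

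Symbols and positions came from GENCODE M21, mature sequences from RefSeq. A gene with 10 or more reads in both libraries was called detected. The exact binomial test given the library totals ran over all genes with 10 or more reads in total, with Benjamini-Hochberg adjustment at 0.05. The spread was estimated with edgeR 4.0.16 (common dispersion, intercept only) in R 4.3.3, with DESeq2 1.42.0 size factors as an alternative. Both tests were tried on simulated counts. Python 3.11.15, scipy 1.17.1, pandas 2.3.3 and numpy 2.4.6 were used. A count of 0 was set to a limit of 3 counts.

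Genes named are the 4 vascular genes, the 3 genes nearest to each in level, their neighbours in rank and members of the 8 cell type lists. Mirlet7e, Gm25927, Mir26a-2 and Mir185 were named after their values were seen. Mir139, the gene with the highest mean CPM, is named for the alternative that leaves it out of the totals. The genes were selected by name and the lists by cell type, both with earlier results of these data known. Alternatives were other scalings, columns, filters and tests, and leaving out each library.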

Additional observations from a re-analysis of the deposited data

Results flagged for a closer look

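The antisense column of Mir126b held 30996 entries in library 1 and 53839 in library 2, where a count of 0 would allow 3. It stands out because it lies outside the sense-strand counts and Mir126b itself had 0 sense reads in both libraries. The entries equal the sense reads of Mir126a on the other strand, less 3 in each library. The antisense columns of Mir126a, Mir143 and Mir145a held 0 reads.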

How the results depend on the processing

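Under TMM factors, DESeq2 size factors, totals of all reads, totals without the vascular genes and Mir139, and both other filters, the log2 ratio of library 1 over library 2 stayed between -0.61 and -0.48 for Mir126a, -0.18 and -0.06 for Mir143, and 0.14 and 0.27 for Mir145a. Each kept its call by the exact binomial test except Mir145a with totals of all reads (0.14, adjusted p = 0.0593; 0.000124 to 0.0593 over these settings). With edgeR's exact test the ratios were -0.53, -0.11 and 0.22 and the number called was 0 of 3. In the column that ignores strand, where Mir126a keeps 3 reads a library by the construction of that column, its ratio reversed to 0.25, its mean was 0.778 CPM, and its mean log2 ratio to Mir143 was -13.09 and to Mir145a -8.37, against 0.64 and 5.37 on the sense strand. The mean of Mir143 there was 6759 CPM. Per 1000000 of all reads the means were 3437 for Mir126a, 2155 for Mir143 and 81.6 for Mir145a, through the larger denominator. Scaled by hairpin length they were 8067 for Mir143 and 275 for Mir145a, and Mir126a moved by less than its spread. With 1 library left out, a value is that of the other library, and the tests have no such form. No paired analysis was possible because the series has 1 group. The 2 libraries limit every SD, and Mir145a, with about 1000 reads a library, has the widest intervals.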
